A study of Homo sapiens with 29 samples.

Results

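The genes of the DNA replication machinery were followed through knockdown of the zinc finger transcription factor ZNF148 in human myoblasts. The group was a list of 41 genes that license origins, unwind DNA, copy it, supply its nucleotides or package it into chromatin, and 40 of them were on the array and were tested, out of 22439 genes that could be named. The remaining gene, POLA2, a subunit of the polymerase that starts each new strand, had no probe that could be named through its RefSeq accession. LHCN-M2 cells are human myoblasts immortalized with telomerase and CDK4 and grown from a selected clone. They were transfected with 20 nM of nontargeting siRNA or ZNF148 siRNA and kept in growth media for 24, 48 or 96 h, or in differentiation media for 48 or 96 h. There were 29 arrays in 10 groups, with 3 arrays in each group except for the 96 h controls in growth media, where 2 arrays were given. The cells were subconfluent at 24 h and confluent at the later times. In differentiation media the hours may not count from the transfection, so media comparisons at a given hour may also differ in the time passed since it. The labels call the arrays of a group biological replicates without saying whether they came from separate cultures, so the p-values measure the spread between these arrays, which may be technical.

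DNA replication starts when the origin recognition complex, CDC6 and CDT1 load the ring of MCM proteins onto DNA, a step called licensing. In S phase, CDC45 and the GINS complex join the ring to form the moving helicase, and polymerases copy both strands behind it with the help of the PCNA clamp, its loaders, FEN1 and DNA ligase. Many of these genes are transcribed by E2F factors as cells enter S phase, and they are turned down when a myoblast leaves the cell cycle to become a muscle fibre.

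Levels are given as log2 signal after quantile normalization, and differences between groups are log2 differences of group means. A gene was said to rise or fall only where limma gave a Benjamini-Hochberg adjusted p under 0.05 over all probes and a change of more than 2-fold. In bulk RNA, fewer cycling cells and less RNA of these genes per cell cannot be told apart. The signals of different probes are not compared with each other. ZNF148 itself differed by -1.53 at 24 h, -2.07 at 48 h and -2.31 at 96 h in growth media, and by -2.34 and -2.74 at 48 and 96 h in differentiation media (limma, highest adjusted p = 4.3e-08). Between 32 and 40 of the 40 replication genes were well above background on each array, and none of their signals was saturated.

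The start regions of these genes are shown because 13 of the 36 members with a RefSeq promoter sequence held one of 4 words of the E2F consensus. The words were TTTCCCGC, TTTCGCGC, TTTGCCGC and TTTGGCGC, searched on both strands in the 250 bases before the gene start. They were in 36.1% of the members, in 4 of 52 other replication genes (7.69%) and in 2.79% of 27305 promoters of all genes. Printed here, in lower case with the word in capitals, is the member with the most matches in each role, or the first by name where members tied at 1 match (POLA1 with POLA2 and POLE, and PCNA with RFC3). CDT1, MCM6, GINS2, PCNA, LIG1 and TYMS fell on knockdown at 48 and 96 h in growth media, while POLA1 and UHRF1 held the same kind of word and did not fall. POLE and RFC3, tied with POLA1 and PCNA, fell at both times, though a second and dimmer POLE probe (-1.07) did not pass at 48 h. The sequences are RefSeq, on the gene's strand and in build GRCh38.p14. In MCM6 each capital stretch is a match to TTTGGCGC that overlaps a match to TTTCGCGC on the other strand, which gives 4 matches in 2 stretches.
CDT1 (chr16:88803539-88803788, plus strand): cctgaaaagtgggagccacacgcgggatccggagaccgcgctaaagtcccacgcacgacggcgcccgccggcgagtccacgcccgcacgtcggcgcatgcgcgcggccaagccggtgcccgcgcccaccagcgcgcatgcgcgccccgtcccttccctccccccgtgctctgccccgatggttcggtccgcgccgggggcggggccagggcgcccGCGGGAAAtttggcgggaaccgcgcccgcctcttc
MCM6 (chr2:135876444-135876693, minus strand): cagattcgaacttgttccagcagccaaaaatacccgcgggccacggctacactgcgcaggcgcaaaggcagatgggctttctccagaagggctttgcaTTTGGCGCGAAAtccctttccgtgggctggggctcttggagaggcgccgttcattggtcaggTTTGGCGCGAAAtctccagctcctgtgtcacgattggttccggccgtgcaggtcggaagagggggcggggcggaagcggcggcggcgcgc
GINS2 (chr16:85688955-85689204, minus strand): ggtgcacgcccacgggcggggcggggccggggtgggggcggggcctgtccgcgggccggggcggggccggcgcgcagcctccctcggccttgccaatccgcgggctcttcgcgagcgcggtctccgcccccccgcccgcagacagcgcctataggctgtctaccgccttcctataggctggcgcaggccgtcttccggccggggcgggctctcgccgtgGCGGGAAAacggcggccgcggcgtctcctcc
POLA1 (chrX:24693668-24693917, plus strand): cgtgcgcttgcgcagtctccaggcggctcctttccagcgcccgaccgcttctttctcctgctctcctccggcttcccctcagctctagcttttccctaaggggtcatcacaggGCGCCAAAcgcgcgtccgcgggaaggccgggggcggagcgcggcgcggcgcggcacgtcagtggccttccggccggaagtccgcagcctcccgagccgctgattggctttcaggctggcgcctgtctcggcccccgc
PCNA (chr20:5126623-5126872, minus strand): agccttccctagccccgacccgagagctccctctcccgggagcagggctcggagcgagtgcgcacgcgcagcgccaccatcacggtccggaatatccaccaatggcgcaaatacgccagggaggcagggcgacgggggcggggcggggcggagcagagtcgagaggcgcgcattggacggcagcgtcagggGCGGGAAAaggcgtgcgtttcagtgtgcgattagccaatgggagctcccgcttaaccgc
LIG1 (chr19:48170345-48170594, minus strand): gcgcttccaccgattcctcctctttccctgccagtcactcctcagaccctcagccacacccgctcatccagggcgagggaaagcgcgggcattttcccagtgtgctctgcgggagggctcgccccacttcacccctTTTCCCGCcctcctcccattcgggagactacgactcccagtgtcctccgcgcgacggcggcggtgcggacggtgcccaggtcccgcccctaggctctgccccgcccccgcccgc
TYMS (chr18:657403-657652, plus strand): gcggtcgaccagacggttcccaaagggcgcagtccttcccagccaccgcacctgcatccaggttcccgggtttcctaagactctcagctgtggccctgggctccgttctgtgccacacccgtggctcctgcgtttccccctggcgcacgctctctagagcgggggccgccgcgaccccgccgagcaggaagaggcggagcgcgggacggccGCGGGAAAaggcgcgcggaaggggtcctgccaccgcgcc
UHRF1 (chr19:4909251-4909500, plus strand): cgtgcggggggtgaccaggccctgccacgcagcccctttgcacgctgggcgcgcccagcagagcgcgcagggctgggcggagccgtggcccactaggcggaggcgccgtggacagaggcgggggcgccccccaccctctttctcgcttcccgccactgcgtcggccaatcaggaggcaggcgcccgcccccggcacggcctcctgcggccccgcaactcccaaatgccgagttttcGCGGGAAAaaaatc

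A match is a description of the letters and not a site. The GC box GGGCGG was in 72.2% of the members and in 42.3% of all promoters, the CCAAT box in 55.6% and 33%, and the CHR element TTTGAA in 2.78% and 13.6%, each on both strands. The 12 tested members with an E2F word had a median knockdown difference of 0.92 at 24 h and -2.21 at 96 h in growth media, and the 23 members without one had 0.70 and -2.49. The ranges of both overlapped, from -0.75 to 1.26 and from -0.09 to 1.42 at 24 h. DSCC1, GINS4, MCM4, MCM5 and RPA2 had no entry in the promoter table.

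In growth media the replication genes were above their controls early in knockdown and below them later. At 24 h the median signal over the 40 genes was 11.53 ± 0.02 in the controls (SD over 3 arrays) and 12.15 ± 0.04 on knockdown. At 48 h the controls had 11.25 ± 0.24 and the knockdown cells 9.47 ± 0.03, and at 96 h the values were 11.40 ± 0.03 (2 arrays) and 9.32 ± 0.08. The ZNF148 siRNA arrays were above every control array at 24 h and below every control array at 48 and 96 h. In differentiation media the controls had 8.97 ± 0.05 and the knockdown cells 9.13 ± 0.05 at 48 h, and at 96 h the values were 9.53 ± 0.02 and 8.97 ± 0.07. By this median signal the knockdown arrays were above the controls at 48 h and below them at 96 h, with no overlap at either time. Gene by gene, 28 of the 40 members were below their controls at 48 h in differentiation media, with a median difference of -0.38. The higher median signal there was therefore not a general rise of the members. The plot of the median by array shows the early difference and the low level of every later group but the growth media controls.

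**Figure D1:**
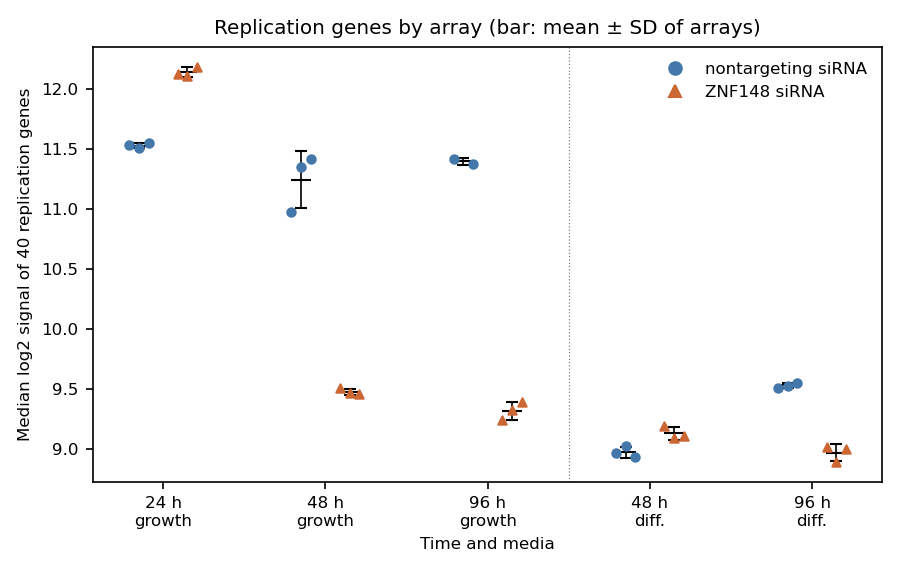
Median log2 signal of the 40 replication genes on each array (points) with the mean and SD of the arrays (bars), by time and media, for nontargeting siRNA (circles) and ZNF148 siRNA (triangles). At 24 h the 3 ZNF148 siRNA arrays sit between 12.11 and 12.19, above the control arrays, and at 96 h in growth media they sit between 9.24 and 9.39, below the control arrays at 11.38 and 11.42.

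At 24 h in growth media, 6 of the 40 members rose on knockdown and none fell. Over all genes tested, 2.46% rose and 3.08% fell. Scaling each array to its 75th percentile gave 11 members in place of 6. Counting changes of any size with an adjusted p under 0.05, 33 members were higher and 2 were lower, against 15.8% and 16.8% of all genes. The median difference of the members was 0.77, a 1.7-fold increase, while the all-gene median was between -0.062 and -0.000808 in each of the 5 knockdown comparisons. The groups did not overlap for 40 of 40 members, nor for 55.7% of all genes. The genes that rose were CDC6 and CDT1 (licensing), GINS2 (a subunit of the GINS complex), TYMS (thymidylate synthase), POLA1 (the catalytic subunit of polymerase alpha) and FEN1 (the flap endonuclease of the lagging strand).

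CDC6, which with CDT1 loads the MCM ring, had log2 signals of 5.68, 5.53 and 5.87 in the controls and 7.08, 7.15 and 7.12 with ZNF148 siRNA. The knockdown arrays were all higher, with a difference of 1.42 ± 0.37 (SE, adjusted p = 0.007, limma). This probe is dim, and with another background correction (normexp) its difference was 0.82 and short of 2-fold. CDT1 went from 11.64, 11.61 and 11.58 to 12.87, 12.92 and 12.83, a rise of 2.40-fold (adjusted p = 0.000282). POLA1 went from 10.26, 10.19 and 10.25 to 11.37, 11.36 and 11.24, a rise of 2.13-fold with no overlap (adjusted p = 6.01e-11). PCNA, the sliding clamp, had a difference of 0.94, just short of the limit. MCM2 to MCM6, the other subunits of the ring, differed by 0.59 to 0.99, while MCM7 was below its controls. The second MCM5 probe, which was not the one chosen, had 1.02 and passed the test. MCM7 read 15.91, 15.89 and 15.87 in the controls and 15.18, 15.16 and 15.08 on knockdown. All the knockdown arrays were lower, by 0.75 on the log2 scale (adjusted p = 2.41e-06), and the second MCM7 probe had -0.59, both short of 2-fold. CDC45 (-0.09) and RFC5 (0.15), which helps load the clamp, had the smallest differences at this time, along with RPA2 (-0.14), the middle subunit of the protein that coats single-stranded DNA.

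At 48 h in growth media 33 members fell on knockdown and none rose, against 12.3% and 11.7% of all genes, and at 96 h 35 fell and none rose, against 12.5% and 12.3%. The median difference was -2.14 at 48 h, a 4.41-fold decrease, and -2.46 at 96 h, a 5.48-fold decrease. All 33 members that fell at 48 h fell at 96 h, joined by CDC45 and POLD1, the catalytic subunit of polymerase delta. The 2 comparisons share no arrays. The groups did not overlap for 40 of 40 members at both times, nor for 63% and 75.3% of all genes. Of the 33 members higher at 24 h, 28 fell at both later times. The share of all genes with the same pattern across comparisons was not counted, here or for the overlaps below. These overlaps therefore do not show that the pattern is particular to the members. The map of knockdown differences by role shows the 24 h column in the opposite colour to the later growth media columns in most rows.

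**Figure D2:**
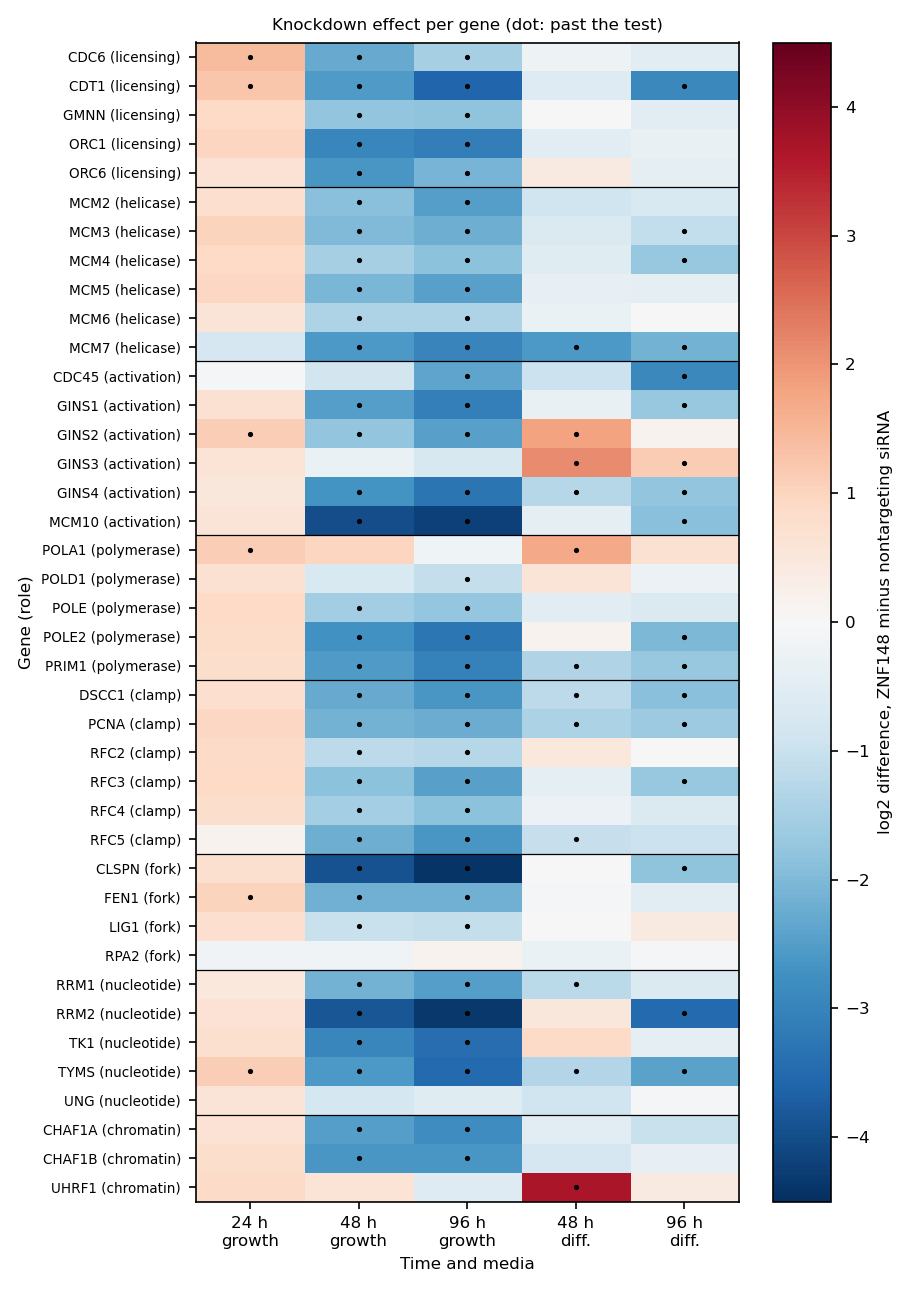
Log2 difference between ZNF148 siRNA and nontargeting siRNA for 40 replication genes, grouped by role (rows), at each time and media (columns), with a dot where the difference passed the test. Dots fill 33 and 35 rows at 48 and 96 h in growth media, 6 rows at 24 h, and 12 and 17 rows in differentiation media, and UHRF1 at 48 h in differentiation media is the deepest red cell at 3.67.

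All 5 licensing genes fell at 48 and 96 h, with median differences of -2.55 and -2.10. CDT1 had log2 signals of 11.48 and 11.52 in the controls at 96 h and 7.71, 8.13 and 7.98 with ZNF148 siRNA. The groups were far apart, by 3.56 ± 0.26 (SE, adjusted p = 3.27e-10), an 11.8-fold decrease. CDC6 read 5.48 and 5.35 against 4.23, 4.16 and 3.42, a decrease of 2.79-fold (adjusted p = 0.00588), and 2 of its 3 knockdown arrays were well above background. Its 48 h arrays were not well above background on knockdown, so its fall there was at least 2.09-fold, and with normexp correction CDC6 passed 2-fold at neither time (-0.55 and -0.52). GMNN, the inhibitor of CDT1, also fell, with differences of -1.76 at 48 h and -1.81 at 96 h.

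The 6 subunits of the MCM ring all fell at both times, with differences from -1.37 to -2.97 at 96 h. MCM7 fell the most of them. Its arrays read 15.65 and 15.73 in the controls and 12.71, 12.71 and 12.76 on knockdown at 96 h, a decrease of 7.81-fold with no overlap (adjusted p = 4.26e-15). MCM6, the subunit that fell least, read 12.21 and 12.18 against 10.76, 10.85 and 10.84, a decrease of 2.59-fold (adjusted p = 6.52e-11). Every ring subunit had its knockdown arrays below its control arrays at both times. Of all genes, 63% at 48 h and 75.3% at 96 h had no overlap in either direction.

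Among the genes that turn the ring into a helicase, MCM10, which helps to activate it, read 7.92 and 8.14 in the controls and 3.60, 4.10 and 3.78 on knockdown at 96 h. The difference was -4.20 ± 0.25 (SE, adjusted p = 2.08e-11), with 1 of the 3 knockdown arrays well above background. At 48 h MCM10 was near background in the knockdown cells on every array, and its decrease was at least 13.1-fold with this normalization. Under other processing its difference was as small as -1.859 at 48 h and -1.965 at 96 h. GINS1, GINS2 and GINS4 fell by 3.06, 2.46 and 3.29 on the log2 scale at 96 h, but GINS3, the remaining subunit of the same complex, read 11.10 and 11.11 against 10.33, 10.46 and 10.35. That difference of -0.72 (adjusted p = 2.08e-07) was short of 2-fold, although the arrays did not overlap. CDC45, chosen after its values were seen, was 12.07, 12.21 and 12.26 in the controls at 48 h and 11.43, 11.40 and 11.24 on knockdown. At 96 h it was 12.60 and 12.70 against 10.25, 10.36 and 10.25. The knockdown effect on CDC45 went from -0.82 to -2.36 between these times, and the difference of the effects was -1.54 ± 0.11 (SE, adjusted p = 4.17e-09).

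The polymerase genes differed among themselves. POLE2, the second subunit of polymerase epsilon, read 8.89 and 8.65 in the controls and 5.30, 5.59 and 5.62 on knockdown at 96 h, a 9.62-fold decrease (adjusted p = 1.5e-10). PRIM1, the primase subunit that lays down primers, fell by 3.04 on the log2 scale, POLE by 1.73 and POLD1 by 1.07. POLA1 read 10.15, 10.16 and 10.18 in the controls at 48 h and 11.07, 11.12 and 11.17 on knockdown, which was higher by 0.96 (adjusted p = 6.03e-11). At 96 h it read 10.54 and 10.56 against 10.35, 10.37 and 10.40, a difference of -0.18 with a 95% confidence interval from -0.32 to -0.03. POLA1 was thus still above its controls at 48 h, when PRIM1, its partner in the same complex, had fallen by 2.55 on the log2 scale. Between 48 and 96 h the effect on POLA1 changed by -1.14 (adjusted p = 3.74e-08).

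The clamp and all 5 loader genes fell at both times. DSCC1, part of an alternative clamp loader, read 8.47 and 8.49 against 5.87, 6.02 and 5.65 at 96 h, a 6.22-fold decrease (adjusted p = 7.42e-10). RFC2, a subunit shared by the clamp loaders, read 10.66 and 10.75 against 9.37, 9.42 and 9.52, a 2.41-fold decrease (adjusted p = 5.6e-10). PCNA fell by 2.14 and 2.22 on the log2 scale at 48 and 96 h. None of these genes had overlapping groups, nor had 63% of all genes at 48 h and 75.3% at 96 h.

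CLSPN, an adaptor of the fork checkpoint, had the largest fall of all members at 96 h with the main processing. It read 8.25 and 8.67 in the controls and 4.02, 3.97 and 4.16 on knockdown, a difference of -4.41 ± 0.29 (SE, adjusted p = 7.66e-11), with 2 of the 3 knockdown arrays well above background. Under other processing this difference was as small as -2.355, while that of RRM2 was no smaller than -3.394, so the ranking depends on the processing. The 48 h arrays of CLSPN were near background on knockdown, and the decrease was at least 13.5-fold with this normalization. Under other processing its difference at 48 h was as small as -1.873. FEN1 and LIG1, which finish the lagging strand, fell by 2.17 and 1.08 on the log2 scale at 96 h. RPA2 read 12.40 and 12.37 in the controls and 12.53, 12.53 and 12.55 on knockdown. This was the only member above its controls at 96 h, by 0.15 with a 95% confidence interval from 0.04 to 0.26, which is small against the change of the others.

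In the supply of nucleotides, RRM2, the regulated subunit of ribonucleotide reductase, read 10.79 and 10.42 in the controls and 6.12, 6.19 and 6.46 on knockdown at 96 h. The fall was 20.3-fold (adjusted p = 4.8e-11), against 2.49 on the log2 scale for its partner RRM1. TYMS and TK1, which make thymidylate, fell by 3.49 and 3.42 on the log2 scale. UNG, which removes uracil from DNA, read 13.03 and 12.94 against 12.48, 12.45 and 12.45, a difference of -0.53 (adjusted p = 1.07e-06) that was short of 2-fold. Of the chromatin genes, CHAF1A, the large subunit of the histone chaperone CAF-1, read 11.94 and 11.89 against 9.08, 9.15 and 9.14, a 6.95-fold decrease (adjusted p = 1.4e-13). UHRF1, which helps copy DNA methylation behind the fork, read 11.78, 11.54 and 11.57 in the controls at 48 h and 12.25, 12.14 and 12.34 on knockdown, which was higher by 0.61 (adjusted p = 0.00104) and short of 2-fold. At 96 h UHRF1 read 11.85 and 11.69 against 11.16, 11.25 and 11.18, and the change of its effect between the times was -1.19 (adjusted p = 0.000633). CDC45, POLA1 and UHRF1 were the 3 of 40 members whose knockdown effect changed between 48 and 96 h in the test of the difference, all toward lower values, against 1.9% of all genes lower and 3.12% higher. Leaving out replicate 3 of the controls or of the knockdown cells at 48 h gave 5 members in place of 3.

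The effects at 24 h and at the later times were tested against each other in the same fit. The effect was lower at 48 h than at 24 h for 35 members and at 96 h than at 24 h for 39 members, against 10.4% and 11.3% of all genes, and it was higher for none, against 10.3% and 11.7%. RPA2 was the exception at 96 h (0.29), and at 48 h CDC45, GINS3, POLA1, UHRF1 and RPA2 did not pass. The 24 h arrays were on a slide and in a scan of their own, and only the 24 h cells were subconfluent. Time, scan and confluence therefore cannot be told apart in this comparison. The plot of early against late differences shows 37 genes above 0 at 24 h and below 0 at 96 h, with MCM7, CDC45 and RPA2 left of 0.

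**Figure D3:**
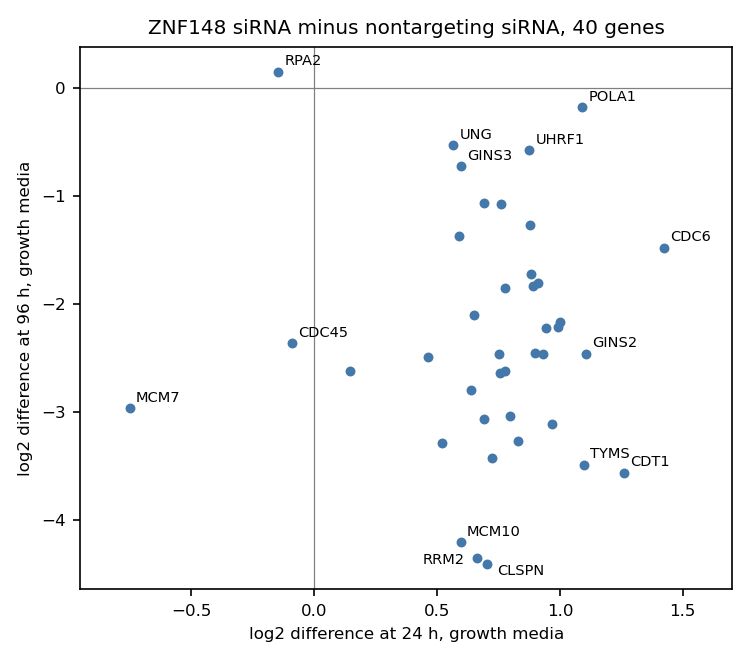
Log2 difference between ZNF148 siRNA and nontargeting siRNA at 24 h (x axis) and 96 h (y axis) in growth media, 1 point per replication gene, with no array shared by the axes. POLA1 lies at 1.09 and -0.18, MCM7 at -0.75 and -2.97, and CLSPN, RRM2 and MCM10 lie lowest, below -4.

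Other marker lists also changed on knockdown, though not always at the times when the members did. All 8 markers of differentiated muscle rose on knockdown at 48 and 96 h in growth media, with median differences of 6.45 and 6.07, and none of the 8 did at 24 h. Their median level was 16.31 to 16.39 on the knockdown arrays at 48 h and 16.71 to 16.79 at 96 h, against 9.96 and 10.36 in the 96 h controls. In differentiation media 8 of 8 rose at 48 h and 3 of 8 at 96 h. Of 6 myoblast markers, 4 rose and 1 fell at 48 h in growth media, 3 rose and 1 fell at 96 h, and 2 rose and none fell at each time in differentiation media. In the controls at 48 h in growth media, 1 array (replicate 1) had a median muscle marker signal of 14.95, against 6.30 and 6.49 on the other 2, and a median replication signal of 10.98 against 11.35 and 11.42. Without it, the median knockdown difference at 48 h was -2.28 and 33 members fell. All 7 genes of an interferon response list rose on knockdown at 96 h in growth media (median 5.35) and at 96 h in differentiation media (median 4.78). At 24 h 1 of 7 rose, and at 48 h 3 of 7 rose and 1 fell in growth media. Their median level was 10.97 and 11.02 in the controls and 15.49 to 15.64 on knockdown at 96 h in growth media. Within a slide, the median difference was -1.76, -2.33 and -2.17 at 48 h and -2.41 on the 1 slide that held both groups at 96 h in growth media. The part of these markers in the replication results was not tested.

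Without knockdown, most members were lower in differentiation media. With nontargeting siRNA, 36 members were lower in differentiation than in growth media at 48 h and 35 at 96 h, and none was higher, against 8.25% and 8.27% of all genes lower and 7.79% and 6.82% higher. The median differences were -1.99 and -1.87. RRM2 went from 10.22, 10.85 and 10.73 to 4.96, 5.02 and 4.07 at 48 h, a 60.5-fold decrease (limma, adjusted p = 5e-14). Of its lower arrays, 2 of the 3 were well above background. CLSPN and MCM10 were well above background on no control array in differentiation media at 48 h. They fell by at least 17.0-fold and 16.1-fold with this normalization only. MCM7 differed by only -0.56 at 48 h in this comparison and passed 2-fold at 96 h, at -1.28. RPA2 was 0.29 and 0.38 higher. These comparisons share their growth media controls with the knockdown comparisons.

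In the cells given ZNF148 siRNA, fewer members changed with the media. At 48 h 6 members were lower in differentiation media and none higher, and at 96 h 7 were lower and none higher, against 2.85% and 4.94% of all genes lower and 1.13% and 1.44% higher. The median differences were -0.41 and -0.42. With normexp background correction the counts were 2 and 2. The members lower at 48 h were CDC45, CDT1, MCM10, CLSPN, RRM2 and TYMS, and at 96 h POLE2 and RFC3 joined and TYMS did not pass. RFC3 was well above background on 2 of the 3 knockdown arrays at 96 h in differentiation media. CDC45 had the largest difference at 48 h. Its signals on knockdown were 11.43, 11.40 and 11.24 in growth media and 8.57, 8.38 and 8.47 in differentiation media at 48 h, a 7.39-fold decrease (adjusted p = 2e-16). With this normalization RRM2 was lower by at least 3.49-fold and POLE2 by at least 2.07-fold at 96 h, where neither was well above background in differentiation media. CLSPN and MCM10 also passed the test at both times, but they were not well above background in either media at 48 h nor in differentiation media at 96 h, and no fold is given for them. The knockdown cells in growth media were also set against the control cells in differentiation media at 96 h. In that comparison 7 members were lower, 1 was higher and 32 did not pass, against 8.45% and 10.3% of all genes, and with normexp correction 4 were lower and none higher. The differences ran from -1.68 for MCM7 to 1.03 for GINS3, with a median of -0.22, and a miss of the threshold does not show that the other members were alike.

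Within differentiation media, at 48 h 8 members fell and 4 rose, against 17.4% and 15.2% of all genes, and at 96 h 16 fell and 1 rose, against 12.8% and 10.5%. The median differences were -0.38 and -0.66, and the members' shares at 48 h lay close to those of all genes. The 8 that fell at 48 h were MCM7, GINS4, PRIM1, PCNA, RFC5, DSCC1, RRM1 and TYMS, all of which had also fallen in growth media. MCM7 read 14.82, 14.77 and 14.85 in the controls and 12.23, 12.22 and 12.23 on knockdown, a 5.99-fold decrease (adjusted p = 1.19e-15) with a wide gap between the groups. Its effect differed between the media by 0.00 ± 0.13 (SE) at 48 h.

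The 4 that rose at 48 h were UHRF1, GINS3, GINS2 and POLA1. UHRF1 read 8.61, 8.01 and 7.70 in the controls and 11.80, 11.71 and 11.82 on knockdown, a 12.7-fold increase (adjusted p = 4.39e-15). GINS3 read 8.70, 8.94 and 8.64 against 10.87, 10.93 and 10.85, a 4.35-fold increase (adjusted p = 8.73e-16). GINS2 read 7.68, 7.55 and 7.02 against 9.23, 9.19 and 9.23, a 3.49-fold increase (adjusted p = 3.34e-11). POLA1 read 8.94, 9.12 and 8.95 against 10.65, 10.73 and 10.74, a 3.26-fold increase (adjusted p = 2.11e-15). All 4 fell with differentiation media in the controls at 48 h, by 1.16 on the log2 scale for POLA1 to 3.75 for GINS2, and none of the 4 passed the test between the media on knockdown. GINS3 had the same mean on knockdown in both media at 48 h, 10.88, while its controls went from 11.18 to 8.76. At 96 h only GINS3 still passed the test as a rise, from 9.25, 9.41 and 9.39 to 10.36, 10.55 and 10.53 (adjusted p = 3.52e-11). POLA1 and UHRF1 were still above their controls at that time, by 0.69 and 0.42 on the log2 scale, both short of 2-fold. The knockdown and control arrays did not overlap for POLA1 or UHRF1, while those of GINS2 did.

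At 96 h in differentiation media the 16 that fell included CDC45 (-2.91), CDT1 (-2.90), TYMS (-2.41) and MCM7 (-2.11). CDC45 read 10.43, 10.43 and 10.39 in the controls and 7.50, 7.48 and 7.53 on knockdown, with no overlap (adjusted p = 4.1e-17). RRM2 fell by at least 3.32-fold and POLE2 by at least 2.18-fold. With normexp correction RRM2 (-0.87), POLE2 (-0.58), CLSPN (-0.31) and MCM10 (-0.28) no longer passed, and 12 members fell. CLSPN and MCM10 passed the test but read below background on knockdown at a level where no fold can be given. All 16 had also fallen at 96 h in growth media. RFC3, among the 16, had -1.70 with 2 of the 3 knockdown arrays well above background. Its second probe had -0.60 and did not pass. Of the licensing genes only CDT1 passed as a fall, and ORC1 and ORC6, subunits of the origin recognition complex, had -0.32 and -0.42. ORC1 was well above background on 1 of the 3 control arrays and on none on knockdown. CDC6 was on 2 of the 3 control arrays and on none on knockdown. For ORC1 and CDC6 a fall could therefore not be measured at this time. GMNN and LIG1 did not pass either, with -0.48 and 0.39.

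**Figure D4:**
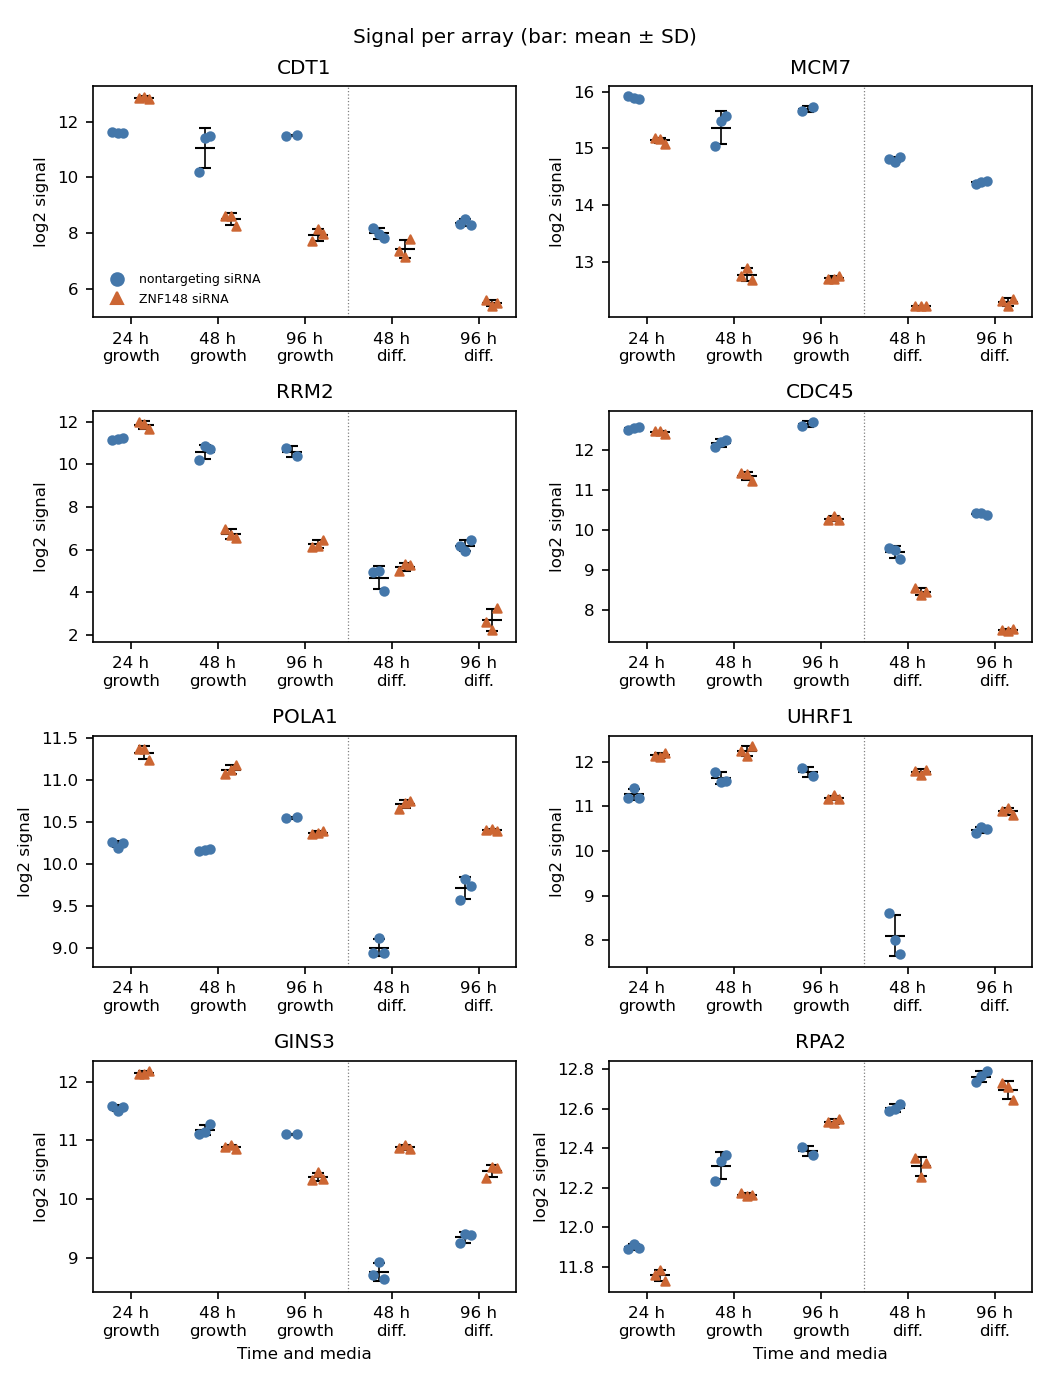
Log2 signal of 8 replication genes on each array (points) with the mean and SD of the arrays (bars), by time and media, for nontargeting siRNA (circles) and ZNF148 siRNA (triangles), each panel on its own axis. MCM7 lies at 12.90 or below in every knockdown group after 24 h, CDC45 is lowest on knockdown at 96 h in differentiation media, POLA1, UHRF1 and GINS3 are lowest in the controls at 48 h in differentiation media, and RPA2 stays between 11.73 and 12.79 throughout.

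The effect of knockdown differed between the media in a direct test. This contrast equals the media change on knockdown minus the media change in the controls. Its counts therefore restate the media comparisons above and are not a separate result. The log2 difference was higher in differentiation than in growth media for 31 members at 48 h and 26 at 96 h, and lower for none, against 8.15% and 5.57% of all genes higher and 9.1% and 6.94% lower. UHRF1, among the 31, was above its controls in both media (0.61 and 3.67). The largest such differences were 4.37 for RRM2 at 48 h and 3.03 for TK1 at 96 h. For RRM2, 2 of the 3 controls at 48 h in differentiation media were well above background. CLSPN and MCM10 were well above background in neither siRNA group there, and CDC6 and ORC1 were not on knockdown. At 96 h in differentiation media these 4 genes, POLE2 and RRM2 were not well above background on knockdown. The differences of these genes between the media therefore rest in part on dim signals. CDC45 (-0.16 and -0.55), UNG (-0.10 and 0.46) and RPA2 (-0.15 and -0.22) did not pass at either time. The plot of single genes by array shows the low controls of UHRF1 and GINS3 in differentiation media. Slides held both media, and within a slide the median knockdown difference in differentiation media was between -0.28 and -0.55 at 48 h and between -0.66 and -0.69 at 96 h.

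Between 48 and 96 h few members passed the test. With nontargeting siRNA in growth media 0 of 40 members passed by limma and 0 by the methods' t-test, while 7 had an unadjusted p under 0.05 and 4 an adjusted p under 0.05 at any size by limma, against 0.0327% of all genes lower and 0.404% higher with the 2-fold limit and 0.496% and 1.9% at any size. In differentiation media 6 members were higher at 96 h than at 48 h in the controls, against 5.76% of all genes higher and 4.22% lower, and UHRF1 led them with 2.37, while CLSPN and MCM10 among them were not well above background at 48 h. With normexp correction the count of 6 was 3. With ZNF148 siRNA 2 members were lower at 96 h in growth media and 4 in differentiation media, against 1.82% and 3.73% of all genes lower and 4.13% and 4.34% higher. With normexp correction the count of 4 was 1.

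A second list held 64 further genes of replication and its control, all of them tested. In growth media 4 of these rose at 24 h and none fell, 35 fell and 1 rose at 48 h, and 37 fell and none rose at 96 h. Over all genes, 2.46% rose and 3.08% fell in the first of these comparisons, 11.7% rose and 12.3% fell in the second, and 12.3% rose and 12.5% fell in the last. The largest rises at 24 h were CDC25A, a phosphatase that switches on cyclin-dependent kinases, at 1.56, NASP, a histone chaperone, at 1.40, and SKP2, part of a ubiquitin ligase, at 1.22. The largest falls at 96 h were TOP2A, the topoisomerase that untangles sister DNA, at -5.38, TICRR, which helps fire origins, at -4.52, and CCNA2, the cyclin of S phase, at -4.26. In differentiation media 9 fell and 9 rose at 48 h, against 17.4% and 15.2% of all genes, so these counts lay near the background, and 17 fell and 1 rose at 96 h, against 12.8% and 10.5%. The median differences in growth media, 0.51, -1.15 and -1.25, were each nearer to 0 than those of the 40 members, and that difference was not tested.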

How the data were processed

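RNA for 29 samples was hybridised to 1-colour Agilent arrays of 62976 spots, of which 2075 were controls. The deposited intensities are processed, background-subtracted spot signals on a linear scale, and the file headers name Agilent Feature Extraction 10.7.3.1. The authors also deposited a matrix of normalized log2 values, used here to choose the brightest of a gene's probes. A build is named, as hg19, in 14 array files.

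Control and outlier spots were dropped, signals were log2-transformed and averaged over the spots of a probe (58201 probes), and arrays were quantile-normalized. A probe was kept if 2 or more arrays had it well above background (38714 probes). Groups came from the labels. The 10 group means were fitted with limma 3.58.1 (lmFit, eBayes, two-sided) in R 4.3.3, and figures were drawn in Python 3.11.15. Shares of all genes were taken over 18338 genes with a tested probe, named through RefSeq accessions. Where no array of a group had a probe well above background, the fold is given as a bound against the lowest signal well above background on those arrays. Such a bound holds only for these quantile-normalized values. Other background correction gave smaller differences for several of these genes. Between 41.5% and 56.5% of probes per array were well above background, and the number of arrays limits the precision. Scripts were tested on simulated data.

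Array values are given for the members with the largest and smallest change of each role at 96 h in growth media, the largest rise at 24 h, and any member called against the majority of a comparison; others were chosen after their values were seen. The members, lists and comparisons were chosen with earlier results of these data known. Alternatives covered background correction, scaling, filters, probe choice, variance model, array weights, slide and replicate blocks, the methods' t-test, the authors' normalized values, the threshold and left-out arrays.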

Additional observations from a re-analysis of the deposited data

Results flagged for a closer look

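These results were picked out because the knockdown effect in 1 group differed from that in another by a direct test of the difference. The effect was lower at 48 h than at 24 h in growth media for 35 members, most for CLSPN (-4.63), and lower at 96 h than at 24 h for 39, again most for CLSPN (-5.11). Between 48 and 96 h it changed for 3 members, CDC45 (-1.54), UHRF1 (-1.19) and POLA1 (-1.14). The log2 difference was higher in differentiation media than in growth media for 31 members at 48 h, most for RRM2 (4.37), and for 26 members at 96 h, most for TK1 (3.03). The 48 h knockdown arrays of CLSPN in growth media were near background, so that value rests on dim signals. For RRM2, 2 of the 3 controls at 48 h in differentiation media were well above background. Groups of 3 or fewer arrays were not searched for single outlying arrays.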

How the results depend on the processing

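The counts of members that passed the test stayed within 1.5 times the reported count under most alternatives, and none changed direction. Without the 2-fold limit more members passed: 35 at 24 h, 30 and 33 on knockdown at 48 and 96 h in differentiation media, 24 and 26 for the change of media in knockdown cells, 4 and 22 for time in the controls (growth and differentiation media), 14 and 25 for time in knockdown cells, 24 for knockdown cells in growth media against controls in differentiation media, and 10 for the change of effect from 48 to 96 h. With normexp background correction, 2 and 2 members passed for the change of media in knockdown cells, 3 for time in the controls in differentiation media, 1 for time in knockdown cells there, and 4 for knockdown cells in growth media against controls in differentiation media. Scaling to the 75th percentile gave 11 at 24 h. The causes were not tested. Single named members kept their call in all but 14 alternatives, where 8 lost it, all with normexp (CDC6 at 24, 48 and 96 h in growth media, DSCC1 at 48 h and CLSPN, MCM10, POLE2 and RRM2 at 96 h in differentiation media), and 6 gained it. Over all genes, normexp called 453 in place of 1017 at 24 h, 2850 in place of 4398 and 2989 in place of 4544 at 48 and 96 h in growth media, and 2582 in place of 4290 at 96 h in differentiation media, 1761 in place of 2941 and 1797 in place of 2766 for the media in the controls, 304 in place of 731 and 514 in place of 1170 for the media in knockdown cells, 35 in place of 80 and 1018 in place of 1831 for time in the controls, 528 in place of 1091 and 669 in place of 1479 for time in knockdown cells, 2035 in place of 3447 for knockdown cells in growth media against controls in differentiation media, and 554 in place of 922 for the change of effect from 48 to 96 h. Without the 2-fold limit every comparison called over 1.5 times more genes, from 440 in place of 80 for time in the controls in growth media to 11936 in place of 5961 for knockdown at 48 h in differentiation media. The count of 80 was also 37 with the replicate block, 0 with only the arrays of the comparison or the methods' t-test after Benjamini-Hochberg adjustment, 313 without nontargeting siRNA replicate 1 at 48 h and 199 without replicate 2 at 96 h. Leaving out 1 array at a time gave 5 to 7 members at 24 h, 32 to 33 and 35 to 35 at 48 and 96 h in growth media, 12 to 13 and 17 to 19 in differentiation media, 36 to 37 and 34 to 35 for the media in the controls, 5 to 7 and 6 to 8 for the media in knockdown cells, 1 to 2 and 3 to 5 for time in knockdown cells, and 3 to 5 for the change from 48 to 96 h. The 5 in that last count came without nontargeting siRNA replicate 3 or ZNF148 siRNA replicate 3 at 48 h in growth media, and the 1 came without the latter.

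Replicate numbers did not pair the samples: the deviations of same-numbered arrays correlated from -0.146 to 0.124. Numbers are those of the sample titles; for the ZNF148 siRNA arrays at 48 h in growth media the descriptions give 3 to 5 where the titles give 1 to 3. With the replicate number as a block, 6 members passed at 24 h, 33 at 48 h and 35 at 96 h in growth media, and no count of members moved by over 1.5 times. The arrays limit what can be said of probes near background, such as CDC6, CLSPN, MCM10, POLE2 and RRM2 in the low groups.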
